A study of Rattus norvegicus with 90 samples.

Results

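A set of 10 genes of regulated secretion and neuroendocrine identity was followed in gastrin-treated rat AR42J cells: the granins Chga, Chgb, Scg2 and Scg3, the prohormone convertases Pcsk1 and Pcsk2, the vesicle and fusion proteins Syp and Snap25, the transcription factor Neurod1 and the splicing regulator Rbfox1. Members were matched by symbol in the probe annotation, with the brightest probe standing for a gene. The set and the gene lists used below were chosen with earlier results of these data known. Their ranks and counts beside all probes are thus descriptions. Of the 10 listed genes, 9 had a probe, 1 each, among 13337 named genes, and no probe was annotated as Pcsk1.

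Neuroendocrine cells store peptide hormones in dense-core granules. Granins help to form the granule and are themselves cut into peptides, prohormone convertases cleave the stored precursors, and SNARE proteins fuse the granule with the plasma membrane when calcium rises. Gastrin, a peptide hormone of the stomach, acts through the cholecystokinin B receptor and drives such secretion in enterochromaffin-like cells of the gastric mucosa. Rbfox1 binds RNA and directs alternative splicing in neurons, muscle and endocrine cells.

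AR42J is a line from a rat pancreatic acinar tumour that can take on neuroendocrine features. The labels give 4 stimuli: gastrin with cycloheximide (10 arrays), cycloheximide alone (9), gastrin alone (34) and untreated control (35). Cycloheximide blocks protein synthesis. The doses are not given in the labels, and every group is this single line. Batches 2 and 3 ran from 0 to 14 h, batch 1 holds 14 h alone, and batches 4 to 6 hold all 4 stimuli between 1 and 6 h. A further 2 arrays, at 12 h in batch 3, have labels that contradict each other and entered no comparison. Batch numbers were taken from the tag BR and its number in the sample titles. The labels do not name separate cultures, and the spread that the p-values measure may thus be partly technical.

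Levels are the deposited log2 values of the bead arrays, which ran from 5.505 to 14.84, with a median probe mean of 6.401. Every member had a mean above this median, the lowest being Scg2 at 7.03. Shares over all probes, given below, include probes dimmer than any member, and shares among probes of like level are not given. A level belongs to its own probe and is not set against that of another probe. Gastrin samples were paired with controls of the same batch and time, and differences are on the log2 scale. Differences are given with the standard error (SE) of a limma fit over all 22523 probes, the Benjamini-Hochberg adjusted p is over all of them, and a change is called at an adjusted p under 0.05. The fit takes the pairs of 1 batch as independent, although each batch gives several times.

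Of 19 measured acinar markers, 17 had a mean level of at least 7, among them carboxypeptidase A1 (Cpa1), while 0 of 8 fibroblast or stromal markers and 0 of 6 immune or endothelial markers reached it, and 4 of 7 ductal markers did. Among 25 measured hormone and neuroendocrine genes, 5 reached a mean level of 7: Pomc, Uchl1, Eno2, Th and Ncam1. The insulin, glucagon, somatostatin and gastrin probes were below it. Probes differ in brightness and background is unknown, so these counts describe the arrays, and a level under 7 does not show that a gene is silent. Some arrays, of all 4 stimuli, stood apart along 1 axis of expression. A score along it, set to the difference between the 2 h controls of batches 4 and 5 and the other controls of those batches, was above 0.25 in 31 of 90 arrays and is given below where it moves with a member.

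Promoter stretches were shown for the members on which the results turn, taken from RefSeq on build GRCr8. A stretch was found for 7 members and covers the 250 bases before the annotated start. Chgb and Pcsk2 are shown because both rose between 4 and 8 h, Rbfox1 because it fell late, and Scg2 because it alone of the 7 held a complete cyclic AMP response element. Capitals mark matches, on either strand, to TGACGTCA (the cyclic AMP response element, in 1.59% of all such stretches), its half-site TGACG (18.2%), TGANTCA (AP-1, 6.34%), GCGNGGGCG (EGR, 4.29%) or the E-box CANNTG (65.5%), and TATAAA (12.9%) was searched too. The half-site lies within the complete element. The starts used for Rbfox1 and Scg2 lie inside the annotated gene, so other transcripts of those genes start elsewhere.
Chgb, chr3:140496462-140496711, plus strand: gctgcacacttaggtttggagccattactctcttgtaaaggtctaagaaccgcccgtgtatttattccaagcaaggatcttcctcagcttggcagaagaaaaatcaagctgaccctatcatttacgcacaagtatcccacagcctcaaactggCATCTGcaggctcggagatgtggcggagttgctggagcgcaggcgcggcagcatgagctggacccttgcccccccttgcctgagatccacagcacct
Pcsk2, chr3:151333688-151333937, plus strand: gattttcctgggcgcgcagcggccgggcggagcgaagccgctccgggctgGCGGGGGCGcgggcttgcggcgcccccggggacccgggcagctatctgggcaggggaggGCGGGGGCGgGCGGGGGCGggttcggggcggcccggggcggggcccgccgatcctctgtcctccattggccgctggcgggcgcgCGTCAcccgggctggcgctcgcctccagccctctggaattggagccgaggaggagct
Rbfox1, chr10:8999392-8999641, minus strand: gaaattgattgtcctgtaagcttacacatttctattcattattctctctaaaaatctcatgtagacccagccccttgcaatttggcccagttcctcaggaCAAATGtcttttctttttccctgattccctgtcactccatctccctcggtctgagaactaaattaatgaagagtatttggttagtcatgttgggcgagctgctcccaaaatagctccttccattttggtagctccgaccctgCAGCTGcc
Scg2, chr9:88256971-88257000, minus strand, 30 bases around the element: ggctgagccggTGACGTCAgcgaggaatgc
Pcsk2 held 3 EGR matches and 1 half-site, Chgb 1 E-box and Rbfox1 2 E-boxes. Of the stretches not shown, Syp, which also rose between 4 and 8 h, held 1 EGR match and 1 E-box. So did Neurod1, which had no called response to gastrin. A match is a description of the letters and not a measured binding site.

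Rbfox1 was the member with the largest response, and it came late. At 10 h it was at 8.26 and 8.27 with gastrin, against 9.09 and 9.11 in the controls of batches 2 and 3. At 14 h it was at 8.23, 7.99 and 8.04 with gastrin, against 9.11, 8.88 and 8.67 in the controls of batches 1, 2 and 3. All 5 gastrin samples lay below all 5 controls. In such bulk RNA, fewer cells with a transcript and less of it per cell cannot be told apart. Averaged over 10 and 14 h, Rbfox1 fell by 0.82 ± 0.07 on the log2 scale (SE, n = 5 pairs), or 1.76-fold (limma adjusted p = 1.62e-09). By p-value it ranked 9 of 22523 probes, and 7.52% of all probes were called in this window in either direction. Single times gave the same direction: the fall was 0.83 ± 0.10 at 10 h (limma adjusted p = 1.13e-05, n = 2) and 0.80 ± 0.08 at 14 h (8.02e-07, n = 3). At 12 h the only pair, in batch 2, was at 7.81 with gastrin and at 8.91 in the control, and has no test.

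Before 10 h no Rbfox1 difference passed. Between 0.5 and 2 h the difference was -0.10 ± 0.04 (limma adjusted p = 0.191, n = 12), with 9 pairs lower and 3 higher. Between 4 and 8 h it was -0.10 ± 0.05 (limma adjusted p = 0.217, n = 11), with 6 pairs lower and 5 higher. At 8 h both pairs were lower, at 8.68 and 8.94 with gastrin and 9.08 and 9.11 in controls, without overlap, and the difference of -0.29 ± 0.10 did not pass (limma adjusted p = 0.282). The change over time was itself tested. The Rbfox1 response at 10 and 14 h was lower than that at 4 to 8 h by -0.71 ± 0.08 (limma adjusted p = 1.51e-05), where 0.555% of all probes were called lower, and it ranked 2 of all probes. Without batch 2 that adjusted p was 0.0585 at a difference of -0.72, and with batch as a random block it was 0.529.

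The plot of Rbfox1 over time shows that the gap opened between a rising control and a gastrin series that turned down after 6 to 8 h. In control arrays of batches 2 and 3, the 6 late values at 8, 10 and 14 h ran from 8.67 to 9.11 with a median of 9.08, and the 6 early values at 0, 0.25 and 0.5 h ran from 8.12 to 8.55 with a median of 8.28. The 2 sets did not overlap, and Rbfox1 rose with time in untreated cells by 0.68 ± 0.05 (limma adjusted p = 1.02e-07), rank 4 of all probes. The fit takes the arrays of 1 batch as independent, so this p-value rests on serial arrays of 2 batches. With gastrin the 6 late values ran from 7.99 to 8.94 with a median of 8.26, and the 4 early values at 0.25 and 0.5 h from 8.22 to 8.47 with a median of 8.37. The late minus early difference with gastrin was 0.01 ± 0.06 (limma adjusted p = 0.977). At 12 and 14 h the gastrin level was below each early control value: 7.81, 7.99 and 8.04 in batches 2 and 3. The array score was above 0.25 in 1 of the 5 late gastrin samples (0.291, batch 2 at 10 h) and in none of the controls. Without arrays of high score the fall was 0.82 (limma adjusted p = 2.41e-07). In a limma fit that left out the pairing of samples by batch and time, Rbfox1 did not pass (0.642), and no member passed in any gastrin window.

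**Figure D1:**
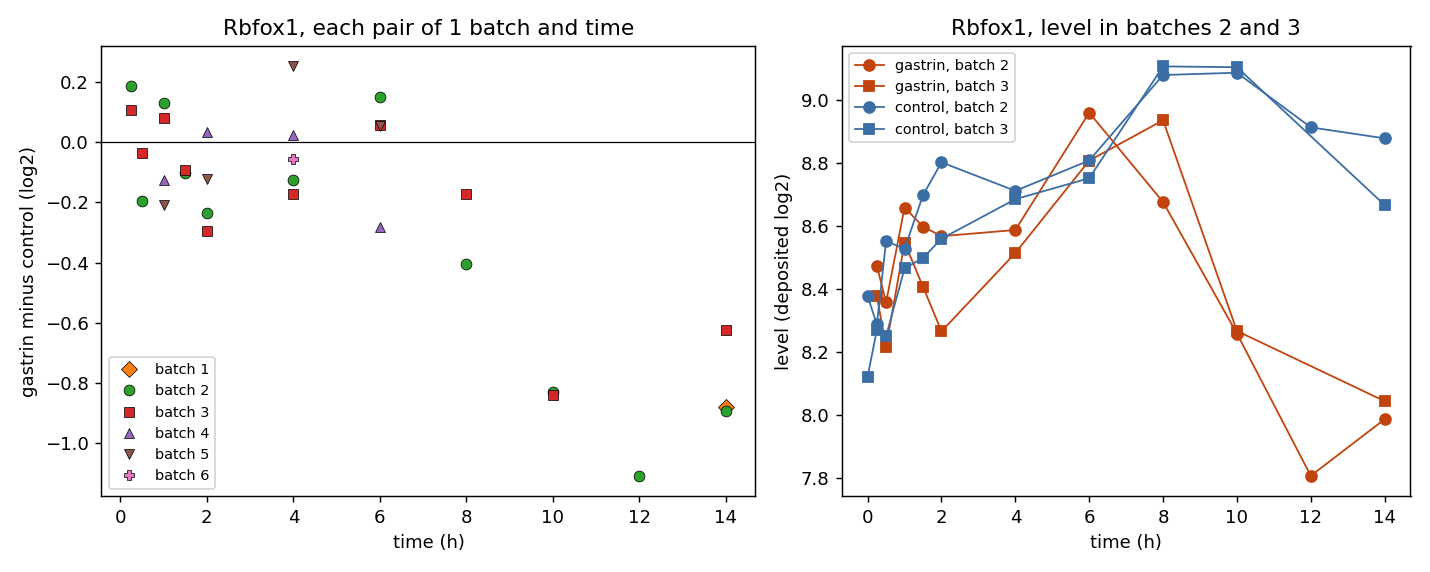
Rbfox1 with gastrin and in controls. The left panel plots the gastrin minus control difference (log2) of each pair against time (h), with batches by symbol, and the right panel plots the deposited log2 level in batches 2 and 3; the differences lie between -0.40 and 0.25 up to 8 h and between -0.62 and -1.11 from 10 h on.

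Genes whose gastrin minus control differences followed those of Rbfox1 most closely over the 31 pairs were Per2, a repressor of the circadian clock (Pearson's r = 0.792), Ccdc33 (0.721), Nphs1, which encodes the adhesion protein nephrin (0.718), Rbck1, a subunit of the linear ubiquitin ligase (0.715), and the aldo-keto reductase Akr1c13 (0.713), among 5894 genes compared. The pairs share batches and controls, and the values are a description. No member followed Rbfox1 closely: its r with the other members lay between -0.253 and -0.0575.

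Of 20 measured splicing regulators, 3 fell and 0 rose at 10 and 14 h, where 3.74% of all probes were called lower and 3.78% higher, with a list median of -0.01 against -0.000873 for all probes. Ptbp2, a neuronal repressor of exons, fell by 0.34 ± 0.08 (limma adjusted p = 0.00954), Celf3 fell by 0.28 ± 0.09 (0.0442) and Celf4 fell by 0.19 ± 0.06 (0.0346), the last 2 being CUG-binding regulators of splicing. Between 0.5 and 2 h the neuronal regulator Nova1 fell by 0.13 ± 0.04 (limma adjusted p = 0.0304), and between 4 and 8 h Elavl1, which stabilises mRNA, rose by 0.15 ± 0.04 (0.00614). A difference between Rbfox1 and these genes was not tested.

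Among the granins, processing enzymes and vesicle proteins, most of the called changes fell in the middle of the course. That window held 11 pairs, against 5 at 10 and 14 h. Between 4 and 8 h, 4 of 9 members rose and 0 fell, where 4.98% of all probes were called higher. With batch as a random block none of the 4 passed (limma adjusted p from 0.101 to 0.827), and with batch as an additive block Chgb and Pcsk2 did. The median difference was 0.13 over the 9 members and -0.00367 over all probes. The 4 were Pcsk2, Chgb, Syp and Snap25, with folds between 1.14 and 1.19. Late minus middle differences of the gastrin effect passed for none of them (limma adjusted p of at least 0.327). They were 0.01 for Pcsk2, -0.0004 for Chgb, -0.24 for Syp and -0.006 for Snap25.

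Pcsk2, the convertase that processes prohormones such as proglucagon, was at 6.80 at the lowest, 6.99 at the median and 10.42 at the highest in the 11 gastrin samples between 4 and 8 h, against 6.47, 6.89 and 9.88 in their controls. The range was wide because its level differed between batches, and the pairs showed the response: 10 of 11 were higher with gastrin. In batches 2 and 3 its levels were close to the median of all probes, where signal over background is unknown. Pcsk2 rose by 0.26 ± 0.05 (SE, n = 11, limma adjusted p = 0.000942), and without batch 2 by 0.23 with an adjusted p of 0.0517. The estimate was largest at 6 h. There batches 2 to 5 were at 6.88, 6.99, 10.42 and 9.98 with gastrin, against 6.47, 6.73, 9.88 and 9.30 in controls. Batches 4 and 5 have no later samples. In batch 2 the difference was 0.41 at 6 h and 0.44 at 10 h, and in batch 3 it was 0.26 and -0.05. Single times were not tested against each other. The rise at 6 h was 0.48 ± 0.08, a fold of 1.39 (limma adjusted p = 0.00028, n = 4).

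The 6 h samples also held the rises of Scg2 and Snap25, so 3 of 9 members were called higher at that time, against 2.39% of all probes. Scg2, which encodes secretogranin II, the precursor of secretoneurin, was at 7.02, 6.92, 8.35 and 7.002 with gastrin, against 6.73, 6.68, 7.52 and 6.71 in controls of batches 2 to 5. It rose at 6 h by 0.41 ± 0.10 (limma adjusted p = 0.0139), batch 4 giving the largest difference (0.83). Outside batch 4 these levels were close to the median of all probes, where signal over background is unknown. Over the whole of 4 to 8 h Scg2 was at 0.13 ± 0.07 and did not pass (0.296). Snap25, a SNARE of the plasma membrane, was at 9.22, 9.33, 9.79 and 8.94 with gastrin at 6 h, against 9.30, 9.18, 9.07 and 8.38 in controls, and rose by 0.34 ± 0.10 (limma adjusted p = 0.0382). It was higher in 3 of the 4 pairs and lower in batch 2. Over 4 to 8 h Snap25 rose by 0.19 ± 0.06 (limma adjusted p = 0.0468), but not in batches 2 and 3 alone (0.07, adjusted p = 0.563). Leaving out batch 2 kept the limma call (0.0166 at 0.29), and leaving out any other single batch ended it (0.0544 to 0.419).

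For Chgb, chromogranin B, the pairs all ran one way. Between 4 and 8 h it was at 12.96, 13.31 and 13.81 with gastrin (lowest, median and highest of 11), against 12.77, 13.15 and 13.58 in controls. The groups overlapped, but each of the 11 pairs was higher with gastrin. Chgb rose by 0.20 ± 0.05 (limma adjusted p = 0.00657, n = 11), and the adjusted p was 0.205 without batch 2 and 0.0757 without batch 3 at rises of 0.18 and 0.22. At 10 and 14 h all 5 pairs were higher as well, with a difference of 0.20 ± 0.07 that did not pass (limma adjusted p = 0.0785).

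Syp, the synaptic vesicle membrane protein synaptophysin, had 9 of 11 pairs higher between 4 and 8 h. It was at 9.08, 9.58 and 10.10 with gastrin (lowest, median and highest), against 8.64, 9.46 and 9.77 in controls, and rose by 0.24 ± 0.06 (limma adjusted p = 0.0104). Its adjusted p was 0.083 without batch 2 and 0.257 without batch 3. At 4 h the pairs of batches 2 and 3 were lower, at -0.15 and -0.14, while the 6 pairs at 6 and 8 h were all higher, between 0.09 and 0.64.

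**Figure D2:**
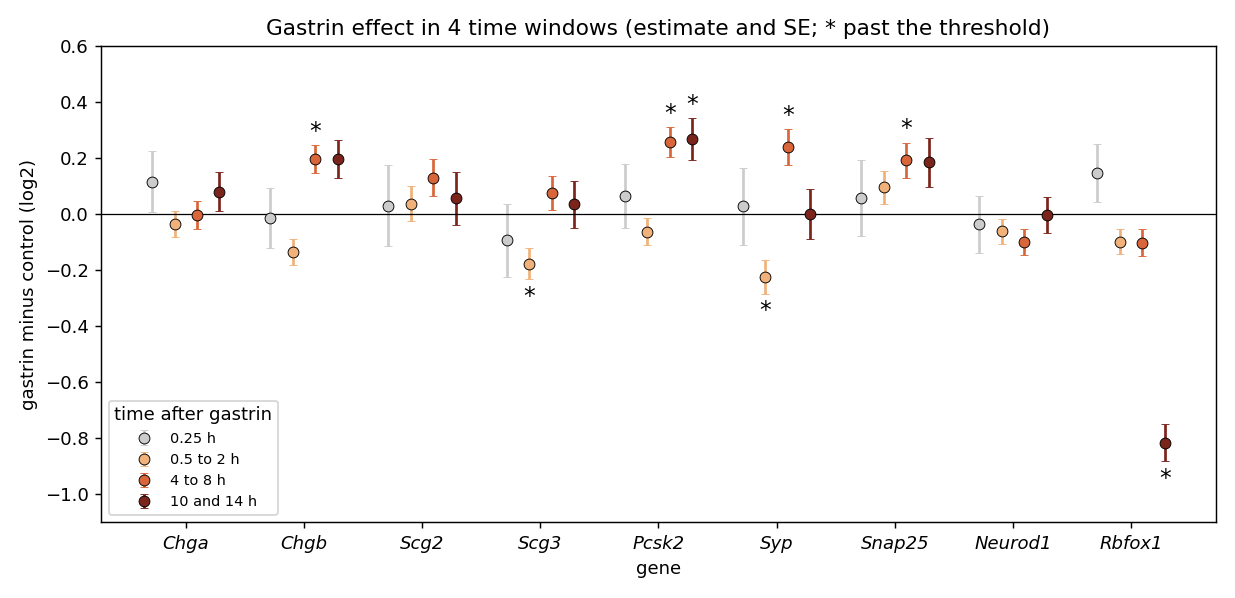
Gastrin effect on the 9 measured genes in 4 time windows. Points are limma estimates of gastrin minus control (log2), bars are 1 SE, and an asterisk marks an adjusted p under 0.05; the late value of Rbfox1 at -0.82 lies apart from the others, which lie between -0.22 and 0.27.

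In the early window the direction was the opposite for 2 of these genes. Between 0.5 and 2 h Scg3 and Syp fell, 2 of 9 members, where 4.53% of all probes were called lower, and 0 members rose. With batch as an additive or random block neither passed (limma adjusted p from 0.103 to 0.237). Scg3, secretogranin III, which tethers granins to the granule membrane, was at 11.06, 11.52 and 12.03 with gastrin (lowest, median and highest of 12), against 11.52, 11.65 and 12.09 in controls, and fell by 0.18 ± 0.06 (limma adjusted p = 0.0428). Syp was at 8.90, 9.19 and 10.06 with gastrin, against 9.25, 9.49 and 10.31 in controls, and fell by 0.22 ± 0.06 (limma adjusted p = 0.0142). Chgb was at -0.14 ± 0.05 over the window (limma adjusted p = 0.0622), and at 1 h it was at -0.29 ± 0.08 (0.0402), with all 4 pairs lower. The batch 4 pair at 1 h averages 2 series, with 13.54 and 13.15 under gastrin against 14.16 and 13.21 in controls, so most of its difference lies in 1 of them.

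These early falls differed between batches. Scg3 averaged 0.06 and 0.18 over the 2 pairs each of batches 4 and 5, and -0.24 and -0.38 over the 4 pairs each of batches 2 and 3. Syp averaged -0.04 and 0.04 in batches 4 and 5, and -0.38 and -0.27 in batches 2 and 3. Without batch 2 or without batch 3 neither passed (limma adjusted p between 0.339 and 0.648). At 1, 2, 4 and 6 h the gastrin effect was tested in batches 4 to 6 against batches 2 and 3, and Scg3 (0.26 ± 0.06, limma adjusted p = 0.00307), Syp (0.31 ± 0.07, 0.00337) and Chgb (0.19 ± 0.06, 0.0161) were higher in batches 4 to 6. So were 8.43% of all probes. The limma call of Chgb was lost without batch 2 (0.0681), 3 (0.226) or 5 (0.184), that of Scg3 without batch 3 (0.195) and that of Syp without batch 2 (0.152).

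The array score moved with the early falls. At 1, 1.5 and 2 h the 6 gastrin arrays of batches 2 and 3 scored between 0.305 and 0.512, against -0.00441 to 0.0683 in their controls, whereas at 2 h in batches 4 and 5 gastrin scored 0.687 and 0.481 against 1.13 and 0.866 in controls. With the score as a covariate Scg3 was at -0.01 (limma adjusted p = 0.97), Syp at -0.16 (0.276) and Chgb at -0.005 (0.978). This fit cannot tell score and gastrin apart, because the score followed gastrin in batches 2 and 3 at these times. The 2 h controls of batches 4 and 5 in turn define the score. Without arrays of high score, a fit that loses all pairs at 1.5 and 2 h, Scg3 was at -0.01 (0.986), Syp at -0.07 (0.897) and Chgb at -0.02 (0.979).

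At 0.25 h no member passed in limma, as was so for all probes (0%), of which 1038 had an unadjusted p under 0.05. The members lay between -0.09 and 0.15, with 2 pairs each. Differences between windows passed in limma for 4 members. From the early to the middle window the gastrin effect rose for Syp by 0.46 ± 0.09 (limma adjusted p = 0.000839), for Chgb by 0.33 ± 0.07 (0.00189) and for Pcsk2 by 0.32 ± 0.07 (0.00539), against 2.68% of all probes called higher. From the early to the late window, where 3.53% of all probes were called in either direction, it rose for Chgb by 0.33 ± 0.08 (limma adjusted p = 0.0181) and for Pcsk2 by 0.33 ± 0.09 (0.0316), and fell for Rbfox1 by 0.72 ± 0.08 (1.75e-06). Without batch 2 or 3 each of these limma calls of Chgb, Syp and Pcsk2 was lost (adjusted p from 0.0632 to 0.618), that of Pcsk2 late minus early also without batch 1 (0.0868) or 4 (0.0577), and the Rbfox1 call held (0.0174 and 0.0139). With batch as a random block none of these calls held, Rbfox1 late minus early included (limma adjusted p from 0.0695 to 0.959).

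Pcsk2 was also the only member called higher at 10 and 14 h. It was at 7.02, 6.91, 7.38, 7.04 and 7.27 with gastrin (batches 2 and 3 at 10 h, then batches 1, 2 and 3 at 14 h), against 6.59, 6.95, 6.91, 6.68 and 7.07 in controls. It was higher in 4 of 5 pairs and rose by 0.27 ± 0.07 (limma adjusted p = 0.0231). Without batch 1 the adjusted p was 0.0778, without batch 2 it was 0.697 at a difference of 0.14, with batch as an additive or random block it was 0.111 or 0.845, and without arrays of high score it was 0.38 at 0.15. These levels were close to the median of all probes, where signal over background is unknown.

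Chga and Neurod1 showed no called response to gastrin in any window. Chga, chromogranin A, lay between -0.03 and 0.12 in the 4 windows. Neurod1, a basic helix-loop-helix factor of endocrine and neuronal differentiation, lay between -0.10 and -0.003, with limma adjusted p of at least 0.236. Both changed with time in culture instead.

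**Figure D3:**
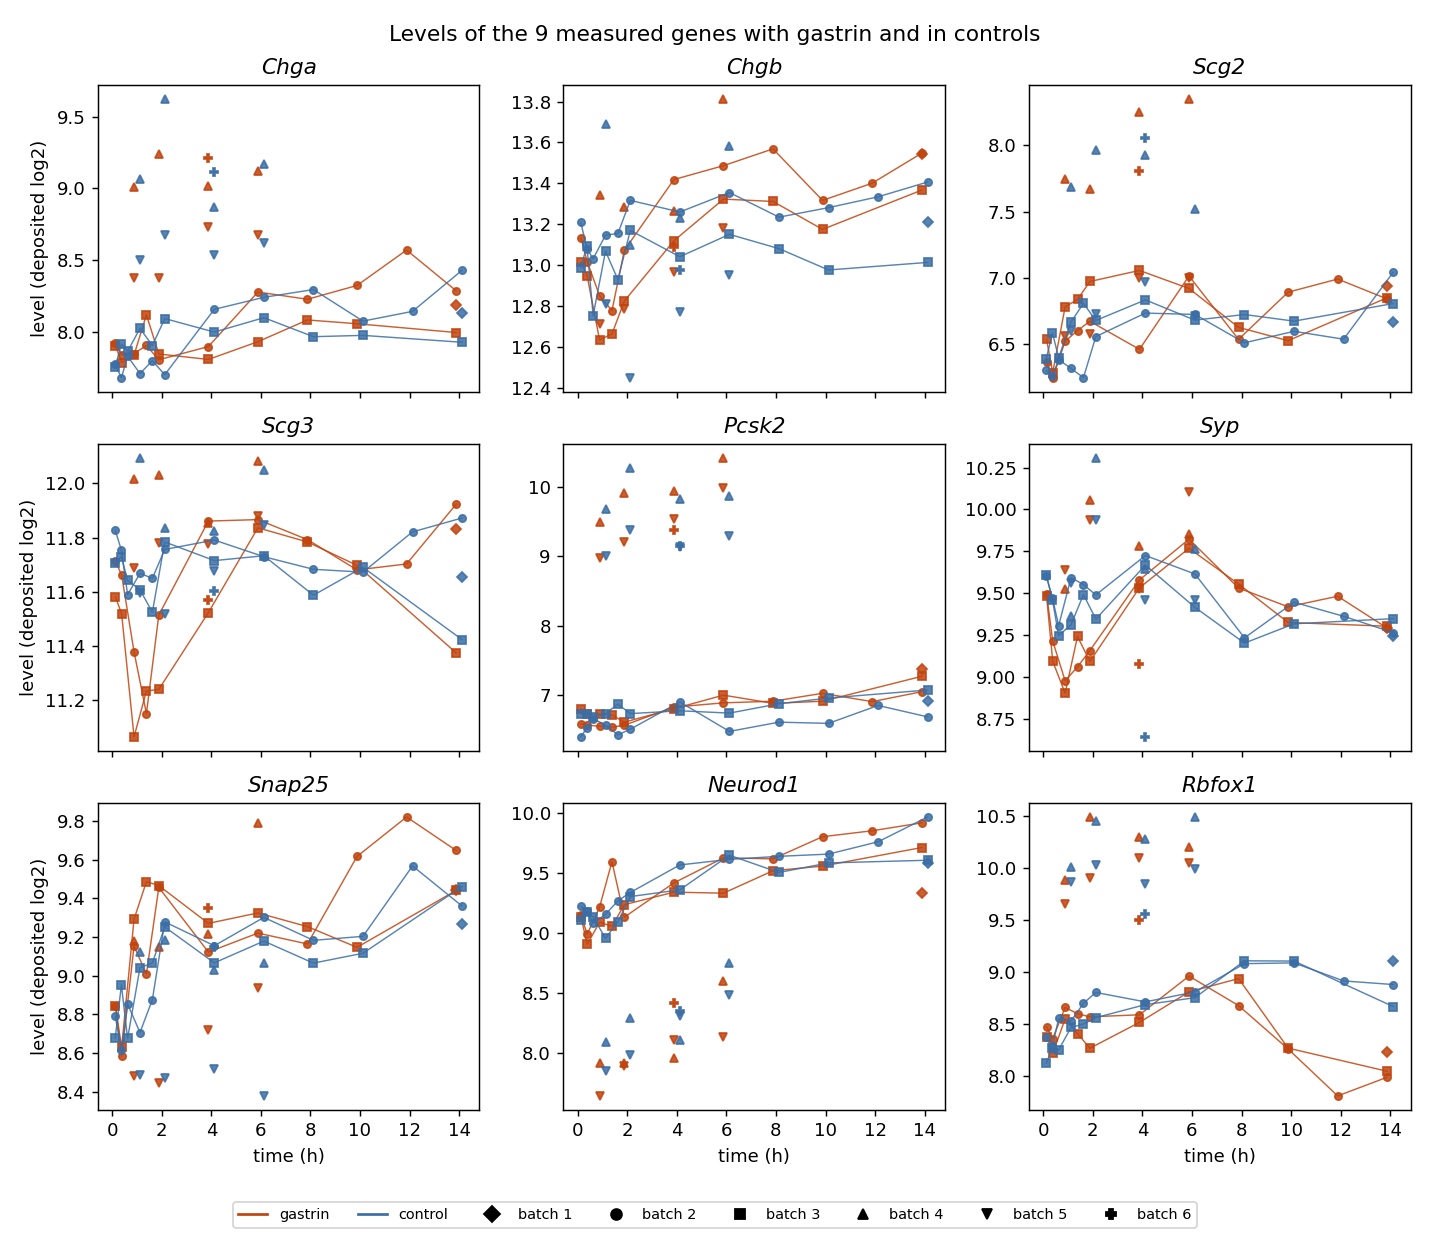
Deposited log2 level of each measured gene against time (h), with gastrin (red, drawn slightly to the left) and in controls (blue). Symbols mark batches and lines join batches 2 and 3; Neurod1 climbs in both, and Rbfox1 parts after 8 h.

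Time without gastrin changed 6 of the 9 members in batches 2 and 3 (8, 10 and 14 h minus 0, 0.25 and 0.5 h), against 12.4% of all probes in either direction. The p-values of time, here and with gastrin, rest on these batches alone and take arrays of 1 batch as independent. Beside Rbfox1, Neurod1 ran from 9.503 to 9.97 late and from 9.08 to 9.22 early in untreated cells, without overlap, and rose by 0.51 ± 0.05 (limma adjusted p = 2.19e-06). Snap25 ran from 9.07 to 9.46 late and from 8.62 to 8.95 early, again without overlap, and rose by 0.47 ± 0.07 (5.78e-05). Scg2 rose by 0.34 ± 0.07 (limma adjusted p = 0.00267) and Chga by 0.31 ± 0.09 (0.0203), and Syp fell by 0.15 ± 0.05 (0.044). Scg2 averaged 6.39 early and 6.73 late, close to the median of all probes, where signal over background is unknown. The Syp call was lost with no block (limma adjusted p = 0.0944), a trended and robust fit (0.0774) and centring on invariant probes (0.0985). The Chga rise was 0.50 in batch 2 and 0.11 in batch 3. 

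With gastrin, 6 of 9 members rose over the same times, against 8.19% of all probes called higher. Snap25 rose by 0.65 ± 0.09 (limma adjusted p = 9.82e-06), Neurod1 by 0.64 ± 0.07 (8.3e-07), Chgb by 0.35 ± 0.05 (2.61e-05), Scg2 by 0.35 ± 0.09 (0.0067), Pcsk2 by 0.34 ± 0.06 (0.000186) and Chga by 0.30 ± 0.07 (0.00308). Neurod1, Snap25, Scg2 and Chga were thus called higher at late times in both series. With the array score as a covariate the Scg2 rise with gastrin was 0.20 and did not pass (limma adjusted p = 0.235). Levels of Scg2 and Pcsk2 in these batches were close to the median of all probes, where signal over background is unknown. A difference between the series was not tested. For Rbfox1 the late minus early gastrin effect given above is a separate contrast, with other times and further batches.

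Cycloheximide lowered several of these transcripts in batches 4 to 6. At 1 and 2 h, 2 of 9 members were lower, against 6.85% of all probes. Pcsk2 was at 9.45, 8.88, 9.72 and 8.68 with cycloheximide, against 9.95, 9.17, 10.28 and 9.38 in controls (batches 4 and 5 at 1 h, then at 2 h), lower in all 4 pairs, and fell by 0.51 ± 0.09 (limma adjusted p = 0.000312). Syp fell by 0.32 ± 0.11 (limma adjusted p = 0.0452), with 9.66, 9.75, 9.57 and 9.25 against 9.60, 9.69, 10.31 and 9.94 in controls. The Syp difference lay at 2 h alone, where those controls had scores of 1.13 and 0.866, and it did not pass with the score as a covariate (limma adjusted p = 0.166) or without batch 4 (0.108) or batch 5 (0.243).

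At 4 and 6 h, 6 of 9 members were changed by cycloheximide, 4 lower and 2 higher, where 25.5% of all probes were called in either direction. Pcsk2 was at 8.98, 8.39, 8.39, 9.71 and 8.56 with cycloheximide, against 9.83, 9.13, 9.15, 9.88 and 9.30 in controls (batches 4, 5 and 6 at 4 h, then batches 4 and 5 at 6 h). All 5 pairs were lower, and Pcsk2 fell by 0.62 ± 0.08, a fold of 1.54 (limma adjusted p = 2.19e-06). Scg3 was at 11.58, 11.35, 10.93, 11.52 and 11.31 with cycloheximide, against 11.82, 11.68, 11.60, 12.05 and 11.85 in controls. The treated values all lay below the control values.

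Scg3 fell by 0.47 ± 0.07 (limma adjusted p = 1.2e-05). Chgb fell by 0.35 ± 0.06 (limma adjusted p = 0.000107) and Syp by 0.27 ± 0.10 (0.0411), both lower in 5 of 5 pairs. Rbfox1 went the other way, at 10.46, 10.18, 10.12, 10.71 and 10.49 with cycloheximide, against 10.28, 9.85, 9.56, 10.49 and 9.99 in controls. It was higher in all 5 pairs and rose by 0.36 ± 0.07 (limma adjusted p = 0.000558). Scg2 was at 8.62, 7.29, 7.85, 8.35 and 7.32 with cycloheximide, against 7.93, 6.97, 8.06, 7.52 and 6.71 in controls, higher in 4 of 5 pairs, and rose by 0.49 ± 0.12 (limma adjusted p = 0.00279). Without batch 5 the limma calls of Rbfox1 (0.136 at 0.30), Syp (0.468 at -0.16) and Scg2 (0.0706 at 0.54) were lost, and that of Scg2 also without batch 4 (0.0591 at 0.33) and without arrays of high score (0.224 at 0.27).

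**Figure D4:**
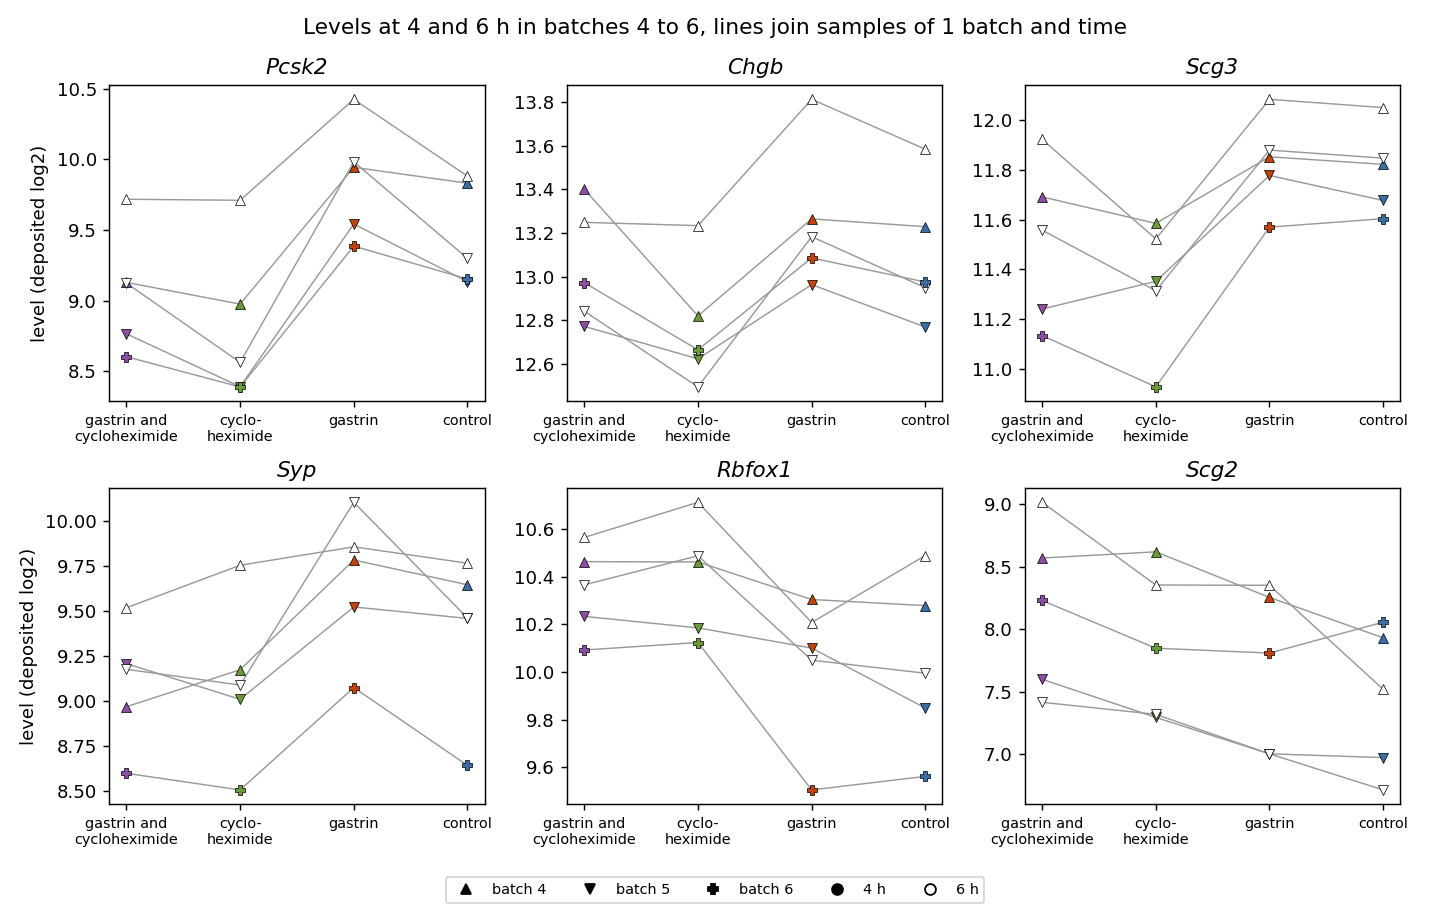
Deposited log2 levels of 6 genes at 4 and 6 h in batches 4 to 6 for gastrin with cycloheximide, cycloheximide, gastrin and control. Lines join the samples of 1 batch and time, with open symbols at 6 h; Pcsk2 and Scg3 are lower with cycloheximide in all 5 sets, and Rbfox1 is higher.

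The response to gastrin beside cycloheximide asked whether a change needs new protein. At 1 and 2 h 0 members were called, where 0.0799% of all probes were, and limma gave 1642 probes an unadjusted p under 0.05. At 4 and 6 h Chgb was the single member called, against 2.17% of all probes called higher. It was at 13.40, 12.77, 12.97, 13.25 and 12.84 with both agents, against 12.82, 12.62, 12.67, 13.23 and 12.50 with cycloheximide alone. All 5 pairs were higher, and Chgb rose by 0.26 ± 0.06 (limma adjusted p = 0.0118). It did not pass without batch 4 (0.0811 at 0.29), batch 5 (0.286 at 0.23) or arrays of high score (0.0657 at 0.35).

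Pcsk2 was at 9.13, 8.76, 8.60, 9.72 and 9.12 with both agents, against 8.98, 8.39, 8.39, 9.71 and 8.56 with cycloheximide alone, a difference of 0.27 ± 0.08 that did not pass (limma adjusted p = 0.0672). In the same samples without cycloheximide, gastrin raised Pcsk2 by 0.43 ± 0.08 (limma adjusted p = 0.00211). The difference between the effects beside and without cycloheximide was -0.17 ± 0.11 for Pcsk2 (limma adjusted p = 0.633) and 0.09 ± 0.08 for Chgb (0.765). No member was called in this interaction, at 1 and 2 h (0.302% of all probes) or at 4 and 6 h (0.369%), and limma gave 2878 and 2466 probes an unadjusted p under 0.05. The late fall of Rbfox1 could not be compared, because samples with cycloheximide ended at 6 h. At 4 and 6 h Rbfox1 was at -0.06 ± 0.07 beside cycloheximide and -0.02 ± 0.07 without it.

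Basal levels of 4 members differed between batch sets. In control samples at 1, 2, 4 and 6 h, 4 of 9 members did not overlap between batches 4 to 6 (9 samples) and batches 2 and 3 (8 samples), and neither did 12% of all probes. Pcsk2 averaged 9.52 ± 0.43 in batches 4 to 6 and 6.67 ± 0.15 in batches 2 and 3 (SD), a fold of 7.17 on the deposited scale. The level in batches 2 and 3 was close to the median of all probes, where signal over background is unknown. By the size of this difference it ranked 19 of 22523 probes.

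Rbfox1 averaged 10.06 ± 0.30 in batches 4 to 6 and 8.66 ± 0.13 in batches 2 and 3, and Chga 8.91 ± 0.37 and 8.004 ± 0.198. Neurod1 was the reverse, with 8.25 ± 0.27 in batches 4 to 6 and 9.37 ± 0.24 in batches 2 and 3. Scg2, Chgb, Scg3, Syp and Snap25 overlapped, and Scg2 control arrays ran from 7.31 to 8.07 in batch 4 and from 6.49 to 6.97 in batch 5. The single batch 1 control, at 14 h, had Pcsk2 at 6.91, near batches 2 and 3. What differed between the batches is not given in the labels.

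**Figure D5:**
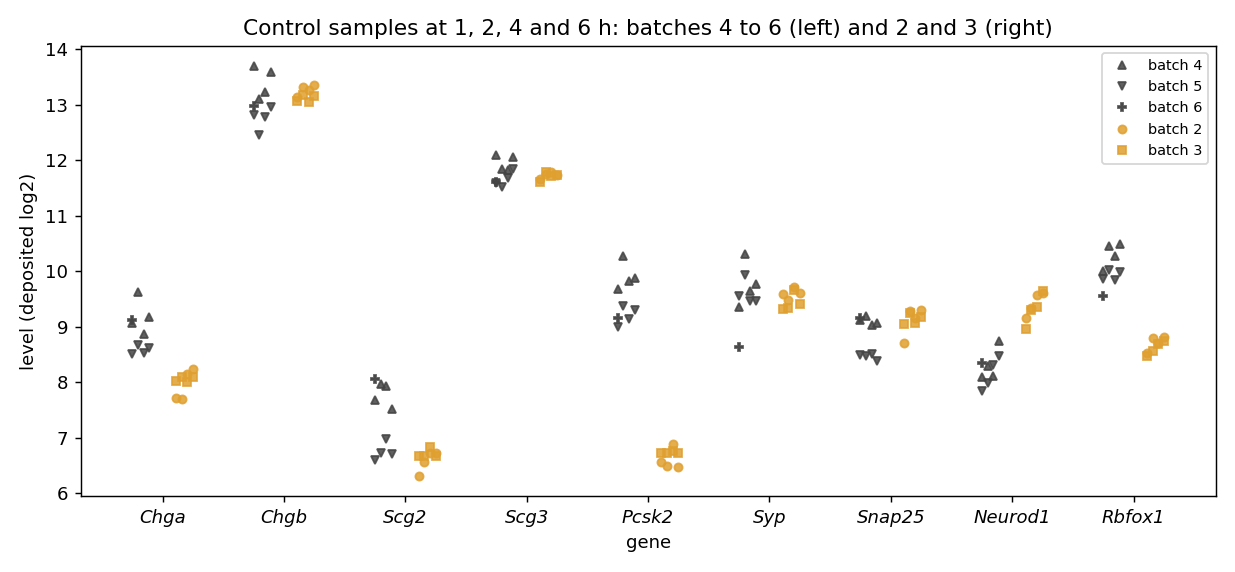
Deposited log2 levels of the 9 genes in control samples at 1, 2, 4 and 6 h. Grey points on the left of each gene are batches 4 to 6 and yellow points on the right batches 2 and 3; Pcsk2, Rbfox1, Chga and Neurod1 separate fully.

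The wider secretory pathway moved in parts. Among 16 measured genes of prohormone processing and other granins, 6 rose and 2 fell between 4 and 8 h, where 4.98% of all probes were called higher and 5.33% lower, and the list median was 0.08 against -0.00367 over all probes. Prepl, a prolyl endopeptidase-like protein, rose by 0.67 ± 0.05 (limma adjusted p = 3.4e-11), Ptprn, the granule membrane protein IA-2, by 0.62 ± 0.05 (2.98e-11), Ica1, an islet autoantigen, by 0.56 ± 0.04 (1.16e-10) and Pam, which amidates peptide hormones, by 0.43 ± 0.05 (6.63e-07). The 2 that fell, named here after their values were seen, were Pcsk6 (-0.30 ± 0.05, 1.85e-05) and Pcsk1n, which encodes the convertase inhibitor proSAAS (-0.17 ± 0.05, 0.0126). At 10 and 14 h 4 rose and 0 fell, against 3.78% and 3.74% of all probes: Ptprn by 0.81 ± 0.06 (6.74e-10), Pam by 0.69 ± 0.07 (3.62e-07), Ica1 by 0.34 ± 0.06 (0.00049) and Nucb2, the precursor of nesfatin, by 0.33 ± 0.06 (0.00143). Between 0.5 and 2 h 1 rose and 2 fell, against 4.68% and 4.53% of all probes: Pcsk7, a convertase, was at 0.12 ± 0.04 (limma adjusted p = 0.0462), Cpd, a carboxypeptidase, at -0.23 ± 0.06 (0.0183) and Nucb2 at -0.13 ± 0.04 (0.043).

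Among 51 measured genes of vesicle exocytosis, 6 rose and 2 fell between 4 and 8 h, with a median of 0.02, where 4.98% of all probes were called higher and 5.33% lower. Nsf, the ATPase that takes SNARE complexes apart, rose by 0.51 ± 0.06 (limma adjusted p = 3.91e-07), Rab3b, a vesicle GTPase, by 0.30 ± 0.05 (3.96e-05) and the synaptotagmin Syt4 by 0.19 ± 0.05 (0.0142), while Cadps, which primes dense-core granules, fell by 0.26 ± 0.07 (0.0173). The mean level of Syt4 was under 7, where signal over background is unknown. At 10 and 14 h 3 rose and 2 fell, near the shares over all probes (3.78% higher and 3.74% lower), with Cadps at -0.60 ± 0.10 (limma adjusted p = 0.000362), Stx4 at 0.59 ± 0.15 (0.0151), Rab3b at 0.53 ± 0.07 (5.73e-06) and Nsf at 0.45 ± 0.09 (0.00104). Between 0.5 and 2 h 0 rose and 3 fell, again near the shares over all probes (4.68% and 4.53%): Vamp8 by 0.32 ± 0.07 (0.00441), Cadps by 0.23 ± 0.07 (0.0342) and Rab3d by 0.18 ± 0.04 (0.00618).

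Counts of called transcription factors of the neuroendocrine lineage were near the share over all probes, with 1 higher and 1 lower of 16 early, 1 lower in the middle window and 1 lower late. Early, middle and late, 4.68%, 4.98% and 3.78% of all probes were called higher and 4.53%, 5.33% and 3.74% lower. Between 0.5 and 2 h Foxa2 rose by 0.37 ± 0.07 (limma adjusted p = 0.000368) and Pax4 fell by 0.13 ± 0.04 (0.0261), Rfx6 fell by 0.30 ± 0.06 (0.00185) between 4 and 8 h, and Myt1 fell by 0.55 ± 0.09 (0.000296) at 10 and 14 h. Of 25 hormone and neuroendocrine markers, 0 rose in any of the 3 windows, which is near the share over all probes (4.68%, 4.98% and 3.78% higher). Early 2 of them fell, and 1 fell in each later window, against 4.53%, 5.33% and 3.74% of all probes. Th, tyrosine hydroxylase, fell by 0.12 ± 0.03 (0.0197) early and by 0.17 ± 0.03 (0.000954) in the middle window, Ncam1 by 0.21 ± 0.06 (0.029) early and Hdc by 0.23 ± 0.07 (0.0348) late. The mean levels of Pax4 and Hdc were under 7, where signal over background is unknown.

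Markers of acinar cells moved in the same samples. The shares of all probes called higher were 4.68% early, 4.98% in the middle window and 3.78% late, and those called lower 4.53%, 5.33% and 3.74%. Of 19 acinar markers measured, 3 rose and 0 fell early, 7 rose and 3 fell between 4 and 8 h, and 5 rose and 2 fell at 10 and 14 h, when the chymotrypsin gene Ctrc rose by 2.41 ± 0.16 (limma adjusted p = 3.57e-11) and the elastase gene Cela3b by 1.41 ± 0.08 (1.21e-12). Their part in the member results was not tested. Of 7 ductal markers 1 fell in each window, Epcam early by 0.23 ± 0.05 (0.00215) and Krt19 by 0.33 ± 0.04 (1.44e-06) and 0.28 ± 0.06 (0.00358) later, and no stromal, immune or endothelial marker was called.

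Over the 31 pairs, the member differences between gastrin and control fell into loose groups. Chgb and Scg3 followed each other (Pearson's r = 0.818), as did Scg3 and Syp (0.627) and Chgb and Syp (0.592), and Scg2 followed Snap25 (0.614). Neurod1 ran against Scg3 (-0.485). Outside the members, Chgb was most like Pnck (0.89) and the endoplasmic reticulum co-chaperone Dnajc3 (0.855), and Scg3 like Nucb1 (0.89) and Xrcc5 (0.872). Pcsk2 was most like the substance P receptor Tacr1 (0.754) and the chaperone Hsp90b1 (0.751), Syp like Gstm7 (0.796) and Manba (0.795), and Chga like Edem2 (0.76) and Hgfac (0.75). Snap25 was most like Zfp385b (0.759) and Dhx40 (0.703), Neurod1 like Entr1 (0.785) and Tbl3 (0.758), and Scg2 like Rars1 (0.682) and Bet1 (0.673). Pairs share batches and the array score, so these values describe likeness in these arrays.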

How the data were processed

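Illumina bead arrays measured RNA of AR42J cells in 90 samples. The authors deposited 1 table of log2 values for 22523 probes, and per the submitters' processing notes the tool was lumi 2.4.0. The values show a normalization between arrays: array medians ran from 6.403 to 6.406, and sorted values differed by at most 0.0267 at 1 rank. Whether the log2 scale was variance-stabilised is unknown here, so folds hold on the deposited scale, and low levels have unknown signal over background. The platform annotation gave 1 symbol to 13793 probes and none to 8730.

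Members and gene lists were chosen with earlier results of these data known. All members are named, then up to 4 genes per list and window past the threshold with the largest absolute change, and, by Pearson's r over 31 pairs, the 5 genes most like Rbfox1 and the 2 most like each other member, among genes of mean level at least 7.

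limma 3.58.1 in R 4.3.3 fitted all probes, with batch and time as a block, and a window is the mean of its times at equal weight. Same-batch control and gastrin arrays deviated together (correlations from 0.199 to 0.923 over 30 pairs), which is why the numbered batches were taken as pairs. Repeat arrays of batch 6 and the 2 series at 1 h of batches 4 and 5 were averaged; the cycloheximide comparisons used the series with all 4 stimuli. The number of arrays limits precision. Alternatives covered the block, leaving out each batch, subsets of arrays, dim probes, centring on 1000 invariant probes and the array score, a projection on 300 probes. The scripts were tested on simulated data.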

Additional observations from a re-analysis of the deposited data

Results flagged for a closer look

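Among 72 groups of levels and 36 groups of gastrin minus control differences, 10 held 1 sample that lay far from the rest, and chance alone picks out about 1 in 20 such groups. Scg2 in batch 4 accounted for 4 of them. Its level with gastrin at 6 h was 8.35 (others 6.92 to 7.02), its control levels were 7.96 at 2 h (others 6.56 to 6.73) and 7.52 at 6 h (others 6.68 to 6.73), and its difference at 6 h was 0.83 (others 0.24 to 0.29). Snap25 had low controls in batch 5, at 8.47 at 2 h (others 9.19 to 9.28) and 8.52 at 4 h (others 9.03 to 9.16), and a difference of -0.033 at 4 h in batch 2 (others 0.19 to 0.20). The Scg3 control at 1 h in batch 4 was high, at 12.09 (others 11.60 to 11.67). The Syp control at 4 h in batch 6 was low, at 8.64 (others 9.46 to 9.73). The Pcsk2 difference at 1 h in batch 4 was -0.18 (others -0.02 to -0.01).

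The gastrin effect differed between time windows by a limma test of the difference for 4 members. Late minus early values were 0.33 for Chgb, 0.33 for Pcsk2 and -0.72 for Rbfox1. Middle minus early values were 0.33 for Chgb, 0.46 for Syp and 0.32 for Pcsk2, and the late minus middle value was -0.71 for Rbfox1. Between batches 4 to 6 and batches 2 and 3 the effect, averaged over 1, 2, 4 and 6 h, differed by 0.19 for Chgb, 0.26 for Scg3 and 0.31 for Syp.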

How the results depend on the processing

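The Rbfox1 fall at 10 and 14 h ran from -0.91 to -0.79 and passed in 19 of 20 alternatives, the exception being the fit with no replicate block. With no replicate block 0 members passed at 0.5 to 2 h, 4 to 8 h, 10 and 14 h, in the 3 differences between windows, with cycloheximide at 1 and 2 h, with gastrin beside cycloheximide and between batch sets, and 1 passed with cycloheximide at 4 and 6 h (6 with the block). An additive block for batch left 0, 2 and 1 members in the 3 gastrin windows and 1 late minus early. With batch as a random block (correlation 0.348) 0, 0 and 1 passed in the windows and 0 in each difference between them. In batches 2 and 3 alone 4 passed at 0.5 to 2 h and 5 late minus early. The 1 h series with all 4 stimuli alone gave 1 at 0.5 to 2 h, and adding the 12 h pair gave 1 in the late window. When the score was a covariate, 0 passed at 0.5 to 2 h, 1 with cycloheximide at 1 and 2 h, 2 with gastrin beside cycloheximide at 4 and 6 h and 1 between batch sets, and Scg3 turned to -0.013 between batch sets. Without arrays of high score 0 passed at 0.5 to 2 h, 1 late minus early, 0 with gastrin beside cycloheximide and 0 between batch sets, and Chgb turned to -0.0048 there; cycloheximide at 1 and 2 h could not be fitted. Leaving out dim probes gave 2 with gastrin beside cycloheximide. Leaving out 1 batch at a time gave 0 to 3 at 0.5 to 2 h, 1 to 3 at 4 to 8 h, 1 to 3 at 10 and 14 h, 1 to 3 late minus early, 0 to 4 middle minus early, 0 to 1 late minus middle, 1 to 2 and 3 to 6 with cycloheximide at 1 and 2 h and at 4 and 6 h, 0 to 1 with gastrin beside it at 4 and 6 h and 1 to 3 between batch sets. In these fits a group left with 1 sample is taken to vary like the others, and the time effects keep no residual degrees of freedom without a batch. Over all probes the calls ran from 125 without arrays of high score to 5981 in batches 2 and 3 alone at 0.5 to 2 h (2075 as reported), and with no replicate block they were 225 of 2323 at 4 to 8 h and 37 of 1694 at 10 and 14 h. Of 1953 member values under alternatives, 1779 stayed on their side of the threshold or, untested, within the spread, 117 no longer passed, 33 newly passed, 22 untested time effects moved by more than the spread and 2 reversed. In 113 of all these values, passing in neither fit, the sign differed. Leaving out the 2 h pairs of batches 4 and 5 was chosen after seeing the data and kept the early falls of Scg3 (-0.26) and Syp (-0.25). The causes were not tested.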

Other observations

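The 2 batch 3 arrays at 12 h, whose titles and stimulus labels disagree, were in no comparison. Rbfox1 was at 9.05 on one and 8.37 on the other, with array scores of 0.0565 and 0.485. On the same arrays Chga was at 8.04 and 8.93, Chgb at 13.17 and 13.15, and Pcsk2 at 6.75 and 6.62. Scg2 was at 6.64 and 6.85, Scg3 at 11.56 and 11.66, Syp at 9.29 and 9.68, Snap25 at 9.28 and 9.27, and Neurod1 at 9.62 and 9.69.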
